A study of Mus musculus with 6 samples.

Results

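The cells described were selected as dividing (G2/M) transit-amplifying cells of the mouse ileal crypt without transcripts of the stem cell receptor gene Lgr5, and are called mitotic-transcript cells after the rule that chose them. They were chosen by measured values in 6 single-cell RNA sequencing libraries. A barcode, the tag of a droplet, was kept when it held at least 2000 UMIs (unique molecular identifiers, each marking 1 captured transcript), at least 500 genes and at most 20% mitochondrial UMIs. A kept barcode was a member when it held 0 Lgr5 UMIs, when at least 3 of the 8 genes Mki67, Top2a, Ccnb1, Cdk1, Birc5, Ube2c, Cenpf and Hmmr were detected with a summed share of at least 0.1% of its UMIs, and when 7 Paneth cell genes (Defa21, Defa22, Defa24, Defa30, Gm14851, Mptx2 and Lyz1) made up under 10% of its UMIs. This gave 3471 members among 14885 kept barcodes, or 23.3%. Of these, 1985 came from Fpr2f/f and 1486 from Fpr2VKO libraries.

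The libraries came from ileal crypt epithelium of C57BL/6J mice that was dissociated with TrypLE and sorted for the surface protein EpCAM. The 3 Fpr2f/f libraries, labelled WT, came from mice whose Fpr2 alleles carry recombination sites, and the 3 Fpr2VKO libraries from the same floxed alleles crossed to a Cre recombinase under the Villin promoter, which acts throughout the intestinal epithelium. As the study describes the crosses, only the Fpr2VKO mice carried the Cre gene, and its part in any difference was not tested. Per the study's methods the mice were sex- and age-matched adults, with 3 mice in each group. The protein FPR2 is a cell surface receptor of bacterial formylated peptides, and the comparison asks how its loss in the epithelium relates to the state of the dividing crypt cells.

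Transit-amplifying cells are the progeny of crypt base stem cells. They divide rapidly above the stem cell zone while they take on absorptive or secretory fates. In late G2 and M phase a cell builds up cyclin B and its kinase, condenses its chromosomes and captures them by kinetochores on the spindle, and then degrades cyclin B and other regulators through the anaphase-promoting complex. Many genes of these steps are held down in G1 by repressor complexes that bind a short promoter motif, the cell cycle genes homology region (CHR), often near CCAAT boxes that recruit the activator NF-Y.

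The promoters of 4 genes of the selection rule and of Mt1, the called gene with the larger fold change, are printed because they hold the motif letters referred to with the results. They were taken from RefSeq on build GRCm38.p6 and run from 5′ to 3′ on the strand of the gene, up to the base before its annotated start. The regions are chr11:99024190-99024299 (minus strand) for Top2a, the DNA topoisomerase of chromosome untangling, chr10:69352913-69353022 (minus strand) for Cdk1, the mitotic kinase, chr2:164769819-164769928 (plus strand) for Ube2c, an ubiquitin-conjugating enzyme of the anaphase-promoting complex, chr13:100786487-100786596 (minus strand) for Ccnb1, cyclin B, and chr8:94178839-94179088 (plus strand) for Mt1, a metallothionein. In the first 4, capitals mark CHR letters (TTTGAA or TTCGAA) and CCAAT letters on either strand. In Mt1, capitals mark the metal response element letters TGCACNC or TGCGCNC on either strand, and the last 7 bases lie inside the gene as the annotation of the files has it.
Top2a: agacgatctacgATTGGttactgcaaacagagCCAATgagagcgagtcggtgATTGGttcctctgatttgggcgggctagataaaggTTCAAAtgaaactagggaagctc
Cdk1: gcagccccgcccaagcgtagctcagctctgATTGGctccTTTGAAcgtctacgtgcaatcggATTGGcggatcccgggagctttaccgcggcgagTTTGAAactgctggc
Ube2c: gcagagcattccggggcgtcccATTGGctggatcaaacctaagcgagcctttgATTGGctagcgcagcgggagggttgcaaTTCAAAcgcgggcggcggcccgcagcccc
Ccnb1: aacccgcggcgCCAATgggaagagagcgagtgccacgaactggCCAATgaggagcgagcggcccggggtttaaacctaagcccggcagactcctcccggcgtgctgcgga
Mt1: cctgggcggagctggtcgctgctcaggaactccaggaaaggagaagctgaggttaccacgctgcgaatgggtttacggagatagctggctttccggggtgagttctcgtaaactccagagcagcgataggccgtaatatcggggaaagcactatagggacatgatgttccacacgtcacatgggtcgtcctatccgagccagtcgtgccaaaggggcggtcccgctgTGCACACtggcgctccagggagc

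In Top2a the CHR letters began 23 bases before the start, in Ube2c 29 bases, and in Cdk1 both 15 and 71 bases. In the printed window Ccnb1 had CCAAT letters, 67 and 99 bases before the start, and no CHR letters. All 8 rule genes matched a RefSeq promoter of 300 bases (250 before and 50 after the start). CHR letters stood in 6 of these 8 promoters (75%), against 19.2% of all 32851 promoters, and CCAAT letters in 7 of 8 (87.5%), against 37.4%. Both motifs stood together in 75% of the rule genes' promoters, against 7.52% of all. Among promoters of spindle and motor genes 71.4% held CHR letters and 66.7% CCAAT letters. Among promoters of S-phase and replication genes the shares were 17.6% and 61.8%, and among enterocyte marker promoters 25% and 15%. These are matches of letters only, and no binding was measured.

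Each library held between 90142126 and 189516114 UMIs and between 1720 and 4198 kept barcodes. Barcodes under 100 UMIs, taken as free RNA, held 7.25% to 13.1% of a library's UMIs. Before the mitochondrial limit the median mitochondrial share was 25.8% to 36.8%, so the limit removed most barcodes of each library. It kept 1904 of 8197, 4198 of 11746 and 2522 of 7950 barcodes in Fpr2f/f. In Fpr2VKO it kept 2149 of 13845, 2392 of 9730 and 1720 of 8316. Pairs of libraries shared 0 to 21 kept barcodes, where a random draw of the platform's barcodes gives 1.39 to 4.49, and the pairs that shared 11 or more all lay among replicates 1 and 2 of the groups. Replicate 3 of Fpr2f/f and replicate 3 of Fpr2VKO shared 8, where the random draw gives 1.84. Of member barcodes, pairs shared 0 to 2. No Fpr2 UMI was found in the members of any library, which allows at most 0.25 to 0.565 CPM (UMIs of a gene per 1000000 UMIs of the class) in a single library and 0.0635 CPM over all 47214644 UMIs of the members. Fpr2 was also at 0 UMIs in the other classes of cells, so it gave no check of the genotype labels.

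The members numbered 471, 1066 and 448 in Fpr2f/f replicates 1, 2 and 3, and 492, 587 and 407 in Fpr2VKO replicates 1, 2 and 3. Fpr2f/f replicate 2 gave more than the other libraries of its group together. The limit of the mitotic share lay in a dense range. In the 6 libraries, in the same order, 47, 130, 35, 68, 50 and 46 members had a share of 0.10% to 0.12%, and 47, 117, 57, 62, 55 and 29 barcodes that met the other conditions lay just outside at 0.08% to 0.10%. Members with exactly 3 of the 8 genes numbered 113, 231, 74, 67, 116 and 54, and barcodes just outside with 2 genes numbered 64, 90, 41, 36, 47 and 20. All 8 genes were detected in 129, 118, 66, 94, 160 and 103 members.

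The condition of 0 Lgr5 UMIs also depends on depth. A single Lgr5 UMI kept 25, 50, 36, 38, 38 and 55 barcodes out. At the members' median depth, deeply sequenced Lgr5-positive dividing cells would be expected to show no Lgr5 UMI in many cases. The expected shares were 62.5%, 62.3% and 52.7% in Fpr2f/f and 51.9%, 45.8% and 49.6% in Fpr2VKO. The members may therefore include Lgr5-transcribing cells in which the transcript was missed.

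Members fell into a deep and a shallow range of UMIs (the plot of UMI totals). Median UMIs per member were 4821, 5438 and 5559 in Fpr2f/f and 6015, 5543 and 6262 in Fpr2VKO, with medians of 1890 to 2352 genes. The group means of these medians were 5273 ± 396 and 5940 ± 365 (SD, n = 3 libraries each, exact permutation test, two-sided, p = 0.2), and 3 libraries against 3 cannot give a p below 0.1 in this test. The median mitochondrial share of members was 12.9% ± 0.54 in Fpr2f/f and 14.5% ± 1.12 in Fpr2VKO (SD, n = 3 each, exact p = 0.1). The 3 Fpr2VKO libraries lay above the 3 Fpr2f/f libraries in this share.

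**Figure D1:**
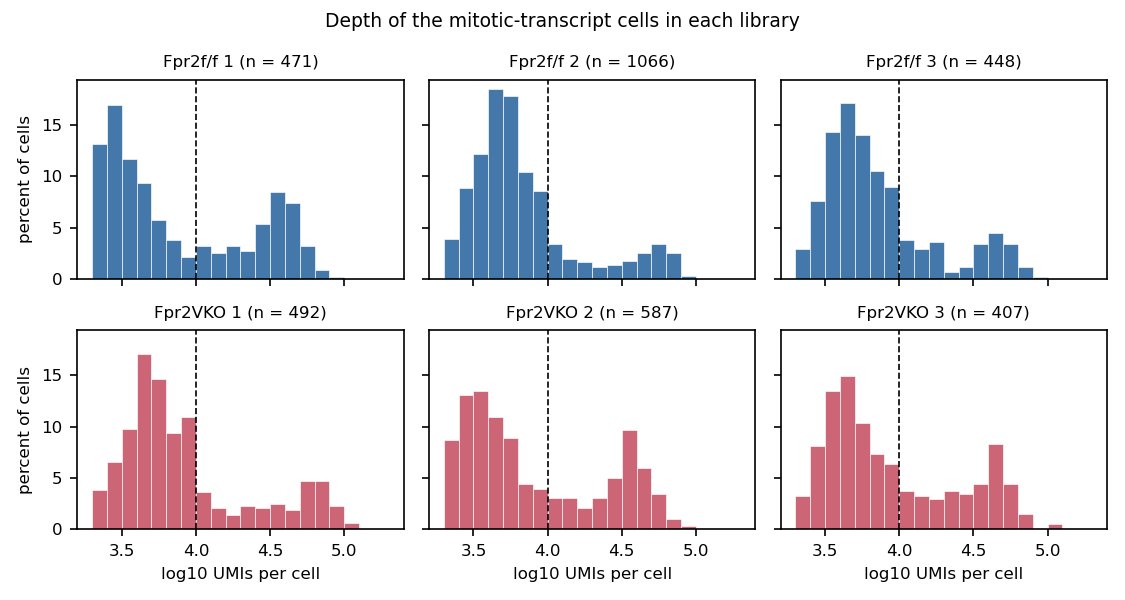
Share of mitotic-transcript cells (percent, vertical axis) by UMI total per cell (log10 scale in bins, horizontal axis), 1 panel per library coloured by group, with a dashed line at 10000 UMIs. In each panel a larger shallow range to the left of the line holds 62.8% to 80.1% of the members, with a smaller deep range to its right.

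Between 110 and 215 members per library held at least 10000 UMIs, with medians of 32506 to 40549 UMIs and 5855 to 6357 genes. Under 10000 UMIs there were 296, 854 and 338 members in Fpr2f/f and 355, 372 and 260 in Fpr2VKO, with median totals of 3254.5 to 4907 UMIs. These made up 72.8% ± 8.93 of Fpr2f/f and 66.5% ± 4.93 of Fpr2VKO members (SD, n = 3 each, exact p = 0.4). Deep members still held most of the members' UMIs in every library. The lowest part was 7647877 of 12008639 UMIs in Fpr2f/f replicate 2, and the highest 5738818 of 6864022 in Fpr2f/f replicate 1. Shallow members carried different RNA. Summed over 67 replication histone genes (Hist1h to Hist4h), whose transcripts are made in S phase and normally lack a poly(A) tail, their CPM was 4.87 times that of deep members (median over libraries, range 4.48 to 5.54). Hist1h1e, a linker histone gene, was 12.5 times as high. Peak1 and Gm26917 together took 6.67% to 13.1% of UMIs in shallow and 0.471% to 1.58% in deep members.

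The mitotic transcripts of shallow members were also of another mix. Mki67, a coat protein of mitotic chromosomes, was 1.59 times and Top2a 1.46 times as high as in deep members, while Ccnb1 was at 0.49, Ccnb2 at 0.38, Birc5 at 0.56 and Ccna2 at 0.53 times the deep level (medians of 6 libraries). Cps1, a urea cycle enzyme, was at 0.24 times and the summed enterocyte markers at 0.49 times the deep level. The immediate early gene Jun was 6.62 times as high. Summed Paneth markers were 4.50 times as high, with a range of 1.22 to 5.81. Because the rule asked for at least 3 of 8 genes in few UMIs, the mix of rule genes in shallow members is partly set by the rule. Doublet calls took 0.983% to 5.44% of the members of a library.

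Measured against the other classes in cells of at least 10000 UMIs, members had the transcripts their name asks for (the plot of gene lists by class). Since the rule defined the classes, these ratios are a description without a test. Top2a stood at 16.6 times (range 14.2 to 17.1) and Mki67 at 10.5 times its level in barcodes outside the dividing and S-phase classes. The 14 G2/M cyclins and kinases, none of them in the rule, were 8.91 times as high in sum. The comparison class of S-phase cells held 795 barcodes without Lgr5 that passed the same limits with 8 S-phase genes (Mcm5, Mcm6, Pcna, Rrm2, Tyms, Gins2, Slbp and Cdc6) and were not members. Relative to these, members were at 3.34 times (2.83 to 3.82) for G2/M cyclins and kinases, 3.59 times for anaphase and cytokinesis genes, 2.27 times for kinetochore and checkpoint genes and 2.15 times for spindle genes. Their S-phase and replication genes were at 0.45 times (0.41 to 0.53), with the replication clamp gene Pcna at 0.35 and the helicase gene Mcm6 at 0.29 times the S-phase level.

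The phase calls gave the G2/M name to only part of the members. By the cyclone classifier (scran), with the study's limit of 0.5 on the G1 and G2M scores, G2M was called in 33.6%, 47.1% and 39.6% of Fpr2f/f members and in 35.9%, 44.3% and 42.4% of Fpr2VKO members, after 3124 members were thinned to 2811 UMIs each. Without thinning the range was 32.1% to 46.7%. G1 was called in 36.6% to 46.2% and S in 14.6% to 21.7% of the thinned members. In 996 members of at least 10000 UMIs, thinned to 10000, G2M was called in 23.4% to 37.4% and G1 in 34.9% to 54.3%. The G2/M name is for this reason not used for the members, which keep the name of their rule.

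Deep members also differed among themselves. Between those with a share of at least 0.2% and those below it, the anaphase and cytokinesis genes stood in a ratio of 1.66 (range over libraries 1.52 to 1.72) and the S-phase genes in a ratio of 0.75 (0.64 to 0.82). Pcna was at 0.59 and Mcm6 at 0.56, while G1 regulators were at 1.00. The mitotic rule genes set this division, so these ratios are again descriptive.

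The nearest class was the 513 Lgr5-positive dividing cells, which met the same mitotic conditions with at least 1 Lgr5 UMI. Mitotic-transcript cells carried nearly the same mitotic program and much less of the stem cell program. In deep cells the summed mitotic lists were at 0.90 to 0.97 times the level in Lgr5-positive dividing cells. The stem cell list was at 0.27 times (0.23 to 0.30) in the sum of its 19 genes other than Lgr5, which the rule had used. Olfm4, a secreted crypt base glycoprotein, was at 745 to 1383 CPM in deep mitotic-transcript cells and 4007 to 7402 CPM in deep Lgr5-positive dividing cells, and the ranges of the libraries did not overlap. Ascl2, the stem cell transcription factor, was at 0.17 times, Smoc2 at 0.44, the Wnt target Axin2 at 0.40 and Sox4 at 0.33 times the level there.

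Enterocyte markers went the other way, at 1.59 times (1.37 to 2.33) the level in Lgr5-positive dividing cells. Among the most abundant genes of the list, the antimicrobial lectin genes Reg3g and Reg3b were at 1.82 and 1.53 times, Fabp2, an intestinal fatty acid-binding protein, at 1.49 times and Prap1 at 1.22 times. The goblet list was at 1.75 times (0.76 to 2.18) the level in Lgr5-positive dividing cells, and above 1 in 5 of 6 libraries. Enteroendocrine markers were at 1.66 times (0.052 to 7.06), Paneth markers at 0.87 times (0.56 to 2.34) and secretory progenitor markers at 0.52 times (0.29 to 0.72). Against barcodes outside the dividing and S-phase classes the enterocyte list was at 0.44, the goblet list at 0.11 and the Paneth list at 0.0055 times.

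**Figure D2:**
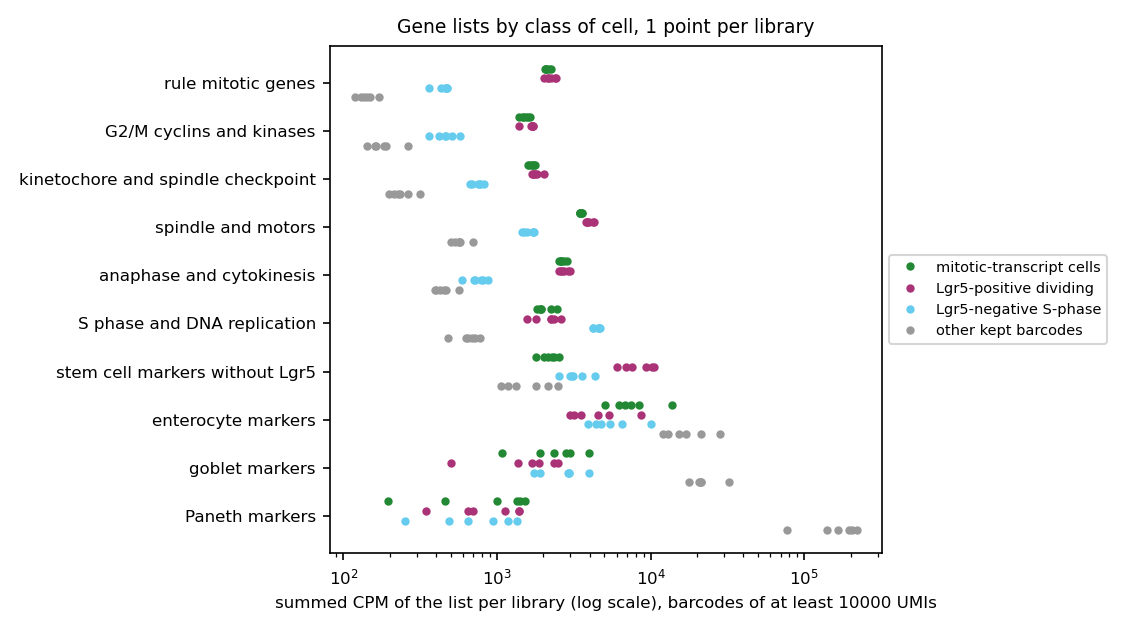
Summed CPM of each gene list (log axis) in barcodes of at least 10000 UMIs, with 1 point per library and 1 colour per class of cell. For stem cell markers other than Lgr5 the mitotic-transcript cells sit at 1804 to 2526 CPM, below the Lgr5-positive dividing cells at 6001 to 10451 CPM, and for S-phase genes at 1825 to 2441 CPM, below the S-phase cells at 4186 to 4667 CPM.

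The sort kept EpCAM-positive cells, and the members carried epithelial transcripts. Epcam stood at 1335 to 1538 CPM, and the 8 genes of epithelial identity summed to 3923 to 4911 CPM. Immune transcripts were present at a low level. The 13 T cell and immune markers summed to 622 to 1022 CPM in Fpr2f/f and 533 to 733 CPM in Fpr2VKO. Of this, Cd74, an antigen presentation gene that crypt epithelium also expresses, gave 266 to 589.7 CPM. In free RNA the same list summed to 353 to 998 CPM. At least 2 of the 7 T cell genes Ptprc, Cd3e, Cd3g, Cd3d, Cd8a, Cd7 and Nkg7 were found in 22 members (0.634%), of which 14 also held Epcam. The 8 stromal markers summed to 5.24 to 35.3 CPM, with the fibroblast genes Col1a1, Col1a2, Col3a1 and Dcn below 1 CPM in every library. The highest sum was in Fpr2VKO replicate 3, where a single member held 179 of the 188 UMIs of the stromal marker Vim. Paneth markers summed to 347 to 2623 CPM, against 4908 to 33403 CPM in free RNA, and Fpr2f/f replicate 1 was lowest in both. Enteroendocrine markers summed to 54.1 to 321 CPM, with the highest value in Fpr2VKO replicate 3, and Neurod1 was at 0 UMIs. In Fpr2VKO replicate 3 a single member held 1146 of the 1298 UMIs of Chgb, a gene of this list.

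Mitotic-transcript cells made up 24.7%, 25.4% and 17.8% of kept barcodes in Fpr2f/f and 22.9%, 24.5% and 23.7% in Fpr2VKO. The means were 22.6% ± 4.23 and 23.7% ± 0.823 (SD, n = 3 each), a difference of 1.07 points that was smaller than the spread within Fpr2f/f (exact p = 1). Fpr2f/f replicate 3 was lowest and the other Fpr2f/f libraries were the highest 2 of all, so the groups overlapped. Without Fpr2f/f replicate 3 the difference was -1.37 points. A mitochondrial limit of 10% left 118, 350 and 115 members in Fpr2f/f and 44, 125 and 46 members in Fpr2VKO. With that limit the difference was -7.63 points, from 22.0% ± 5.81 to 14.4% ± 3.45 (exact p = 0.2). With at least 5000 UMIs it was -2.18 points. Among barcodes under 10000 UMIs it was 5.05 points, from 24.0% to 29.0%, with no overlap (exact p = 0.1). The sort, the barcode limits and the mitochondrial share of each library set the denominator of these shares, and their part in the difference was not tested.

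Of all cycling barcodes (members, S-phase cells and Lgr5-positive dividing cells), members were 70.8%, 81.2% and 68.5% in Fpr2f/f and 70.9%, 69.1% and 67.3% in Fpr2VKO. The means were 73.5% ± 6.79 and 69.1% ± 1.81 (SD, n = 3 each, exact p = 0.5). Fpr2f/f replicate 2 stood above the other 5 libraries, and without it the difference of -4.42 points became -0.56 points. With every kept barcode thinned to 2000 UMIs the difference was -0.18 points, from 77.0% to 76.8% (exact p = 0.9). With at least 5 genes required for the mitotic and also for the S-phase condition it was -5.39 points, from 70.2% to 64.8%, without overlap (exact p = 0.1). By the rule the Lgr5-positive dividing cells differ from the members only in the Lgr5 condition. They made up 2.48% ± 0.288 of kept barcodes in Fpr2f/f and 5.02% ± 1.43 in Fpr2VKO (SD, n = 3 each, exact p = 0.1, no overlap). Their median UMIs, above those of the members, were 31596, 7631.5 and 9172 in Fpr2f/f and 38209.5, 27464.5 and 26315.5 in Fpr2VKO. With a mitochondrial limit of 40% these shares of kept barcodes were 1.83% ± 0.156 and 3.08% ± 0.992, and the groups overlapped (exact p = 0.2). With a limit of 10% they were 2.97% ± 0.160 and 3.91% ± 0.794, without overlap (exact p = 0.1). With every kept barcode thinned to 2000 UMIs they were 0.467% and 1.37%, also without overlap (exact p = 0.1). S-phase cells were at 5.60% ± 1.92 in Fpr2f/f and 5.60% ± 0.783 in Fpr2VKO (exact p = 1), and with a mitochondrial limit of 10% at 5.86% ± 1.75 and 3.85% ± 0.804, with no overlap (exact p = 0.1).

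**Figure D3:**
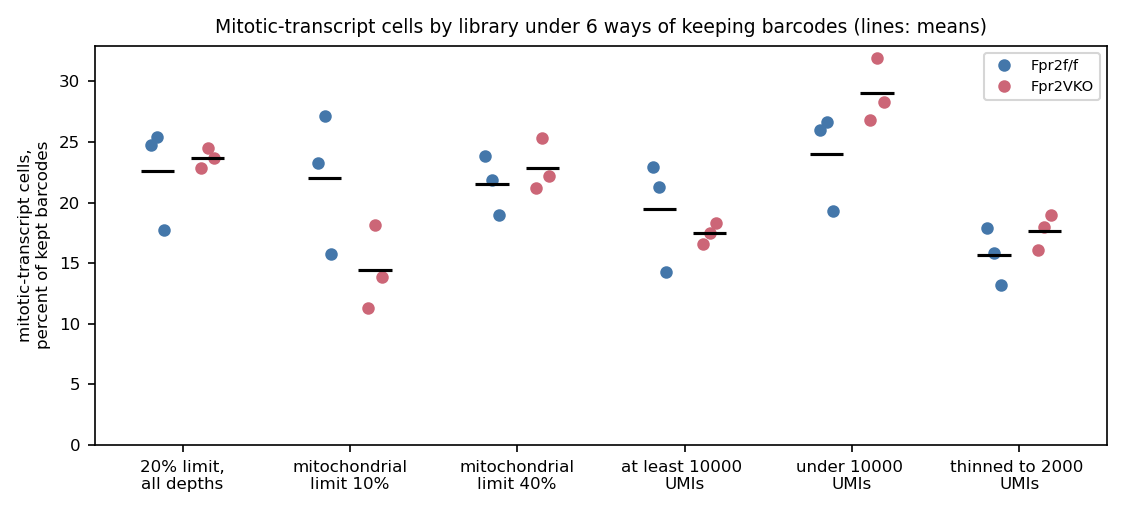
Mitotic-transcript cells as a percent of kept barcodes under 6 ways of keeping barcodes, with 1 point per library coloured by group and a line at the mean of each group of 3. At the 20% limit the groups overlap and Fpr2f/f replicate 3 is lowest at 17.8%, at the 10% limit the Fpr2VKO mean is 7.63 points lower, and under 10000 UMIs it is 5.05 points higher.

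The share called G2M among thinned members was 40.1% ± 6.74 in Fpr2f/f and 40.9% ± 4.40 in Fpr2VKO (SD, n = 3 each, exact p = 0.9). G1 was at 42.7% and 40.4% (exact p = 0.5), and for S the exact p was 0.7. Fpr2f/f replicate 1 was lowest in G2M in its group and Fpr2VKO replicate 1 in the other, and the difference of 0.79 points became -2.45 points without the former and 4.28 points without Fpr2f/f replicate 2. None of the tests of these shares came near the smallest p the design allows.

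Between the groups, 2 of 12388 genes tested in mitotic-transcript cells were called at an adjusted p under 0.05 (0.0161%), with UMIs summed per library and tested by edgeR's quasi-likelihood method, and both were higher in Fpr2VKO. At an unadjusted p under 0.05 there were 571 genes. DESeq2 called 15. Without Fpr2f/f replicate 1 edgeR called 74, of which 19 were higher. Library values did not overlap between the groups with Fpr2VKO higher in 637 genes (5.14%) and with Fpr2VKO lower in 500 genes (4.04%). The median log2 fold change of all genes was -0.00. Fold changes are Fpr2VKO over Fpr2f/f, SE is the standard error of the fit, and adjusted p values in the following are Benjamini-Hochberg values from edgeR over all genes tested.

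Mt1 (ENSMUSG00000031765, on chromosome 8 from 94179082 to 94180327 of mm10) encodes a small cysteine-rich protein that binds zinc and copper. It was at 324, 301 and 427 CPM in Fpr2f/f and at 1069, 1091 and 1187 CPM in Fpr2VKO. Each Fpr2VKO value was more than 2 times each Fpr2f/f value. The difference was 1.67 on the log2 scale (SE 0.15, adjusted p = 0.0003, edgeR), and it was called under all 22 alternatives, with values of 1.56 to 1.88. It was 1.56 in deep and 1.88 in shallow members, and called in each. At least 1 Mt1 UMI was found in 93.9% to 97.1% of deep Fpr2f/f members and in 98.6% to 100% of deep Fpr2VKO members. Mt1 was also higher outside the members. Free RNA held 148, 161 and 236 CPM in Fpr2f/f and 865, 934 and 1111 CPM in Fpr2VKO, and barcodes outside the dividing and S-phase classes held 199 to 312 and 1112 to 1170.1 CPM. The part of free RNA in the members' difference was not tested. In S-phase cells the log2 fold change was 1.28, and the difference of 0.38 (SE 0.09) between the effects in members and S-phase cells had an adjusted p of 0.31 by edgeR.

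The printed Mt1 promoter held metal response element letters 23 bases before the start. The window of 300 bases, which runs 50 bases past the start, held 3 matches, only 1 of them within the 250 printed bases. At least 1 match stood in 25.7% and at least 3 in 1.97% of all promoters. Of the 9 metallothionein and zinc genes listed, 6 were tested, and the other 5 were not called. Mt2, the neighbouring metallothionein, was at 31.2, 24.8 and 56.7 CPM in Fpr2f/f and 29.6, 48 and 52.9 CPM in Fpr2VKO, with full overlap (log2 fold change 0.23, SE 0.33). Its promoter window held 4 matches, 3 of them within the 250 bases before the start. The zinc importer gene Slc39a4 was at 34.3 to 44.6 CPM over all 6 libraries (0.04, SE 0.14), and the zinc transporter gene Slc39a5 at 33.7 to 50.8 CPM (0.17, SE 0.15).

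Sult1d1 (ENSMUSG00000029273, on chromosome 5 from 87554645 to 87569027 of mm10, minus strand) encodes a cytosolic sulfotransferase. It was at 119, 122 and 118 CPM in Fpr2f/f and 209, 220.1 and 225 CPM in Fpr2VKO. The libraries of each group lay close together and the groups were far apart. The log2 fold change was 0.85 (SE 0.12, adjusted p = 0.044, edgeR). It was 0.81 in deep members (adjusted p = 0.0064) and 0.45 in shallow members (adjusted p = 0.85), and Sult1d1 was called in 12 of 22 alternatives, with the adjusted p running from 6.7e-08 to 0.998. Free RNA held 56.9 to 71.6 CPM in Fpr2f/f and 77.1 to 78.8 CPM in Fpr2VKO.

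Within deep members alone, 6 of 11505 genes were called (0.0522%), 3 higher and 3 lower in Fpr2VKO, among them Mt1, Sult1d1 and the sulfotransferase gene Sult1b1 (log2 fold change 0.70, adjusted p = 0.038) higher in Fpr2VKO and Bcl2l15 (-0.70, adjusted p = 0.038) and Gm11290 (-1.14) lower, by edgeR. Within shallow members 4 of 9882 genes were called (0.0405%), Mt1 and Vil1 higher (0.88, adjusted p = 0.017 for Vil1) and Hspa2 (-1.92, adjusted p = 0.026) and Gm48099 (-1.33) lower, by edgeR. The rule for named genes, which itself uses the values, gave Mt1, Sult1d1 and Vil1, and the others were chosen after their values were seen. The difference between the deep and the shallow effect passed the test in 0 of 12926 genes by edgeR, with 541 at an unadjusted p under 0.05.

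**Figure D4:**
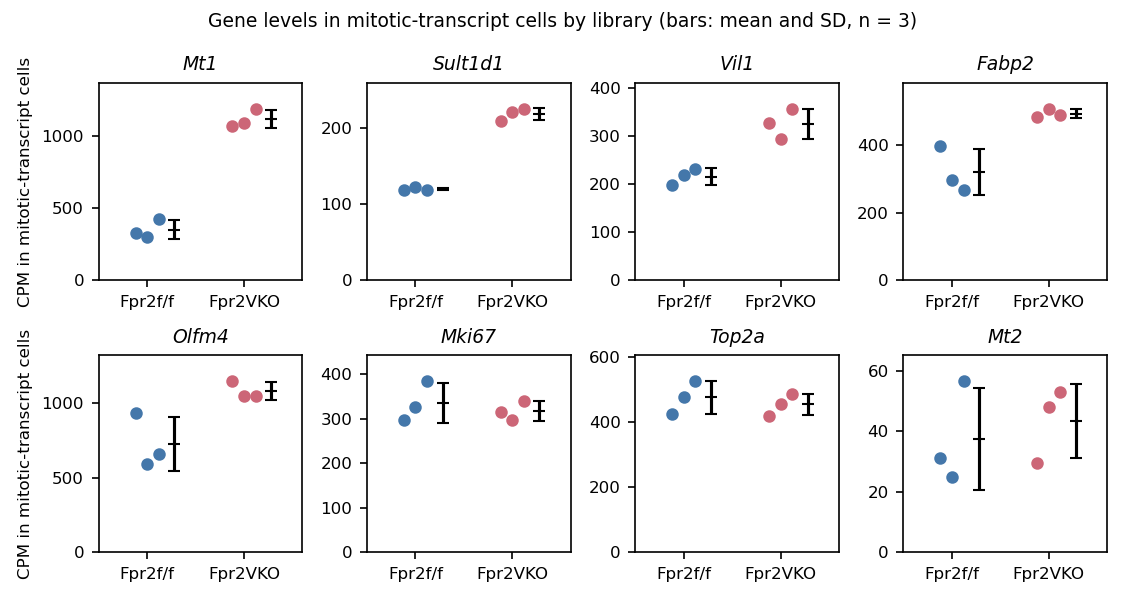
CPM per library (points) of 8 genes in mitotic-transcript cells, with the mean and SD of each group of 3 libraries as bars, each panel on its own linear axis from 0. The groups lie apart for Mt1, Sult1d1, Vil1, Fabp2 and Olfm4, of which Mt1 and Sult1d1 were called, and overlap for Mki67, Top2a and Mt2.

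None of the listed genes that carry out mitosis was called between the groups. For the 8 rule genes the log2 fold changes ran from -0.09 to 0.27. Their sum is partly fixed by the rule, which used these counts. Mki67 was at 297, 327 and 385 CPM in Fpr2f/f and 314, 298 and 340.5 CPM in Fpr2VKO. Top2a was at 425, 478 and 527 CPM and at 420.2, 456 and 487 CPM, so both overlapped. Ccnb1 was at 119, 80.8 and 92.3 CPM and at 116, 115 and 123 CPM (log2 fold change 0.27, SE 0.15), with Fpr2f/f replicate 1 inside the Fpr2VKO range and the other 2 below it. Cdk1, the kinase that cyclin B activates, was at 182 to 240.4 CPM over all libraries, Birc5, the survivin of the chromosomal passenger complex, at 213 to 301 CPM and Ube2c at 352 to 406 CPM. Cenpf, a kinetochore protein, was at 203 to 274 CPM and the spindle protein gene Hmmr at 125 to 153 CPM.

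None of the 14 G2/M cyclins and kinases was called, with estimates higher in 12 and lower in 2 and a median log2 fold change of 0.07. Ccna2, cyclin A, was at 254, 189 and 228 CPM in Fpr2f/f and 224, 253 and 263 CPM in Fpr2VKO. Ccnb2, the second mitotic cyclin B gene, was at 214, 218 and 165 CPM and at 208, 266 and 241 CPM (0.24, SE 0.16). Cks2, a small subunit of cyclin-dependent kinases, was at 228 to 377 CPM over all libraries. In each case the groups overlapped.

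Of 20 kinetochore and spindle checkpoint genes none was called, 13 estimates were higher and 7 lower, and the median was 0.07. In 4 of them the libraries did not overlap with Fpr2VKO higher, against 5.14% of all genes tested. Cenpa, the centromeric histone H3 variant, was at 206, 168 and 154 CPM in Fpr2f/f and 176, 216 and 213 CPM in Fpr2VKO, and the motor gene Cenpe at 162 to 209 CPM over all libraries. Dsn1, of the MIS12 kinetochore complex, had the widest difference of the list, at 12.5, 11.6 and 10.7 CPM against 15.5, 14.3 and 16.7 CPM without overlap (0.39, SE 0.17). Of 23 spindle and motor genes none was called, with 14 estimates higher, 9 lower, a median of 0.03, and no overlap in 2 genes each way, against 5.14% of all genes higher and 4.04% lower. Tubb4b, a beta-tubulin, was at 476 to 561 CPM. Kpna2, an importin that holds spindle assembly factors, was at 39.2, 56.6 and 44.5 CPM in Fpr2f/f and 34.9, 33.8 and 28.6 CPM in Fpr2VKO, again without overlap (-0.55, SE 0.17, adjusted p = 0.72, edgeR).

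Among 17 condensin, cohesin and chromosome protein genes 11 estimates were higher, 6 lower, and the median was 0.03. H2afz, the histone variant H2A.Z, was at 2306, 1584 and 1482 CPM in Fpr2f/f and 1799, 1984 and 1766 CPM in Fpr2VKO, with Fpr2f/f replicate 1 the highest library of all. Hmgb2, a chromatin protein of proliferating cells, was at 1685 to 1921 CPM, and Smc4, a condensin ATPase, at 474 to 603 CPM. Among 17 anaphase and cytokinesis genes 11 were higher, 6 lower, with a median of 0.08. Cdc20, the activator of the anaphase-promoting complex, was at 160.3, 177 and 164 CPM and at 164, 189 and 213 CPM. Ube2s, an enzyme that extends ubiquitin chains on its targets, was at 25.2, 47.6 and 46.3 CPM and at 32.7, 24.9 and 27.2 CPM (-0.51, SE 0.23), with Fpr2f/f replicate 1 among the Fpr2VKO values.

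The genes of the preceding phases gave no call either. Of 33 S-phase and replication genes 13 estimates were higher and 20 lower (median -0.02). Pcna was at 467, 269 and 317 CPM in Fpr2f/f and 405, 338 and 309 CPM in Fpr2VKO, and Tyms, the thymidylate synthase gene, at 96.8 to 115 CPM over all libraries. Of 18 G1 regulators 7 were higher and 11 lower (median -0.09). Ccnd1, cyclin D1, was at 311, 211 and 289 CPM and at 206, 223 and 269.6 CPM, and Ccnd2 at 508 to 687 CPM. Of the 16 cell cycle genes that the study named from these libraries, 4 estimates were higher and 12 lower (median -0.07), with none called. The study named the list for its stem cell cluster, and it reported lower Ccnd1 in its transit-amplifying cells as well. It also measured these genes by quantitative PCR in small intestinal crypts, where it reported the same changes. Its clusters were not chosen by the rule used here, and a list chosen on these libraries is not independent evidence of a direction. In the members, the largest difference of this list, in the G1/S cyclin gene Ccne1, was -0.38 (SE 0.22) at 6.15 to 10.5 CPM.

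**Figure D5:**
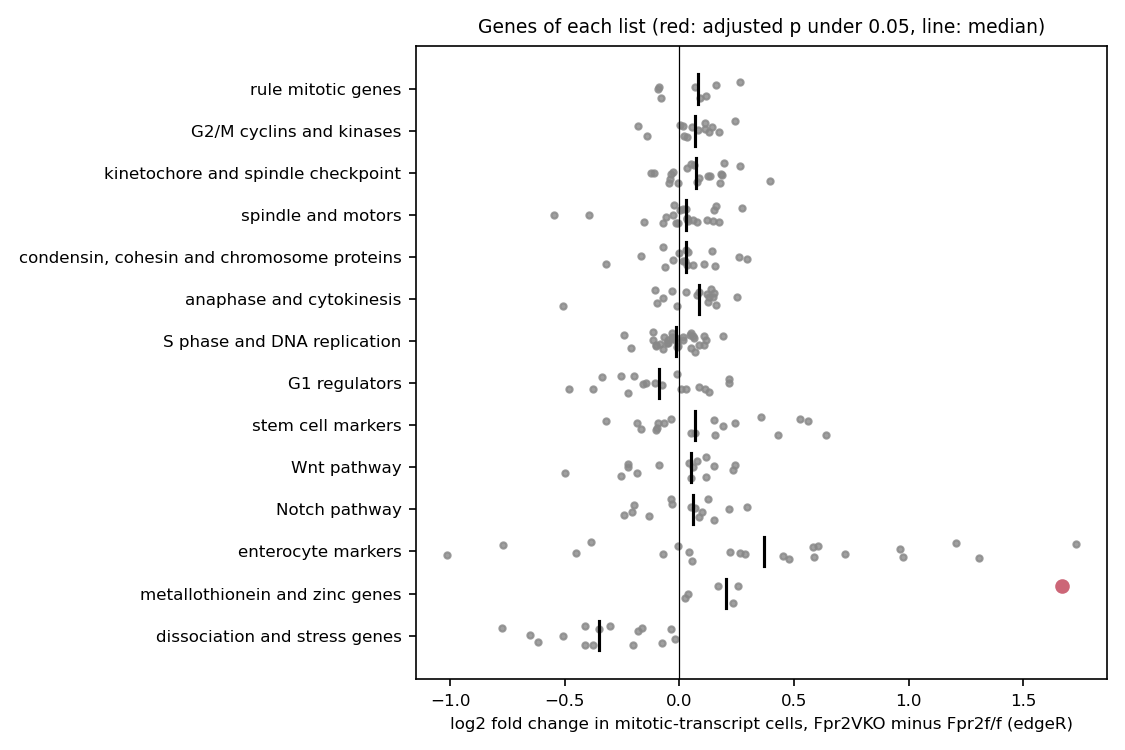
Log2 fold change (Fpr2VKO over Fpr2f/f, edgeR) of each tested gene in 14 lists in mitotic-transcript cells, with a short line at the median of each list and red for an adjusted p under 0.05. The 5 mitotic lists outside the rule genes centre between 0.03 and 0.08, and Mt1 at 1.67 is the only red point.

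Stem cell markers included 19 tested genes of 20, with 11 estimates higher, 8 lower and a median of 0.07, none called, and no overlap with Fpr2VKO higher in 3, against 5.14% of all genes tested. Olfm4 was at 932, 592 and 661 CPM in Fpr2f/f and 1149, 1049 and 1047 CPM in Fpr2VKO (0.56, SE 0.17, adjusted p = 0.74, edgeR). The groups did not overlap, though Fpr2f/f replicate 1 lay close to the Fpr2VKO libraries, and leaving that library out moved the Olfm4 log2 fold change to 0.79 (adjusted p = 0.018). Olfm4 in free RNA was at 251 to 297 CPM in Fpr2f/f and 546 to 647 CPM in Fpr2VKO. Slc12a2, an ion cotransporter of the crypt base, was at 216 to 238 CPM and at 282 to 310.5 CPM (0.36, SE 0.13), also apart. Ascl2 was at 5.39, 5.83 and 10.4 CPM and at 12.2, 10.6 and 10.2 CPM (0.64, SE 0.24), with overlap. Lgr5 itself was at 0 by the rule.

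Of the Wnt pathway list 15 of 21 genes were tested, 9 estimates higher and 6 lower, with a median of 0.05. Ctnnb1, beta-catenin, was at 199.6 to 297 CPM over all libraries. Of the Notch list 14 of 19 were tested (8 higher, 6 lower, median 0.06), with Hes1, the repressor induced by Notch, at 198 to 288 CPM and Atoh1, the secretory fate factor, at 9.04 to 21.2 CPM. Of the Hippo list 14 of 19 were tested (7 higher, 7 lower, median -0.03), with the kinase cofactor gene Mob1a at 88.4 to 153 CPM. No gene of these lists was called.

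Absorptive genes were spread more widely. All 22 enterocyte markers were tested and none was called, but 16 estimates were higher and 6 lower, the median was 0.37, and in 7 genes the libraries did not overlap with Fpr2VKO higher, against 5.14% of all genes tested. The sum of the list did not share this direction. It was at 12690, 4867 and 6843 CPM in Fpr2f/f and 6186, 6729 and 4711 CPM in Fpr2VKO, with overlap. Fabp2 was at 398, 298 and 269 CPM in Fpr2f/f and 483, 509 and 489.6 CPM in Fpr2VKO (0.60, SE 0.16, adjusted p = 0.54, edgeR). Vil1, villin of the microvillus core, had the largest difference among the epithelial identity genes. It was at 197, 219 and 232 CPM and at 327, 294 and 357 CPM (0.58, SE 0.13, adjusted p = 0.47, edgeR). The Cre gene of the Fpr2VKO mice is driven by the Villin promoter, and its part in the Vil1 differences was not tested. In free RNA Vil1 was at 235 to 286 CPM in Fpr2f/f and 334 to 379.9 CPM in Fpr2VKO, and Fabp2 at 250.1 to 374 and 326 to 377 CPM. Fabp1, another fatty acid-binding protein gene, was at 29.1, 33.9 and 10.2 CPM and at 119, 108 and 23.7 CPM (1.73, SE 0.83), where Fpr2VKO replicate 3 fell within the Fpr2f/f values. The antimicrobial lectin gene Reg3g pointed the other way, at 5264, 1722 and 2594 CPM and at 1675, 1956 and 1120.4 CPM (-1.01, SE 0.47), with Fpr2f/f replicate 1 far above the rest.

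Other lineages gave lower and more uneven counts. Goblet markers had 11 tested genes, 7 higher, 4 lower and a median of 0.09, with Tff3, a trefoil peptide of mucus, at 442 to 895 CPM. Of 13 Paneth markers 12 were tested (8 higher, 4 lower, median 0.10), and Defa24 was at 143, 975 and 648 CPM in Fpr2f/f and 316, 894 and 648 CPM in Fpr2VKO. The Paneth median was -0.09 in deep and 0.61 in shallow members. Of 12 enteroendocrine markers 10 were tested (7 higher, 3 lower, median 0.40). A single member held 271 of the 289 Tac1 UMIs of Fpr2VKO replicate 3. Of 11 tuft markers 7 were tested (3 higher, 4 lower, median -0.79), all but Cd24a at low counts, with Dclk1 at 0.911 to 6.41 CPM. The tuft median was -0.02 over 4 genes tested in deep members and 0.50 over 2 in shallow members. Of 10 secretory progenitor markers 9 were tested (8 higher, 1 lower, median 0.18), with Sox4 at 46.2 to 68.3 CPM.

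Of 13 T cell and immune markers 11 were tested, 3 higher and 8 lower (median -0.26), with the granzyme gene Gzma at 199.6, 68.8 and 239 CPM in Fpr2f/f and 206, 134 and 11.3 CPM in Fpr2VKO. Only 1.97% to 9.76% of the members of a library held a Gzma UMI. A single member held 38.0% to 90.1% of a library's Gzma UMIs. Only 2 of 8 stromal markers were tested. The 8 epithelial identity genes had a median of 0.01. None of these was called, and without the 22 members that held T cell genes there were 2 calls among 12269 genes.

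Of 7 ribosomal protein genes named by the study from these libraries 1 estimate was higher and 6 lower (median -0.36). Rpl35 was at 647, 1124 and 721 CPM in Fpr2f/f and 572, 577 and 439 CPM in Fpr2VKO (-0.67, SE 0.22, adjusted p = 0.90, edgeR), without overlap. The 7 genes the study named for immature cells were all lower in estimate. Their median was -0.67 in all members, -0.49 in deep members and -0.35 in shallow members. The most abundant of these genes, Peak1, a pseudokinase gene, was at 10130.2, 30631 and 22268 CPM and at 16343, 12353 and 11885 CPM (-0.65, SE 0.40). Fpr2f/f replicate 1 was the lowest library, and the 3 libraries with the largest shares of shallow members held the 3 highest values. Both lists were chosen by the study on these samples, so their directions are not independent evidence. All 15 tested of 16 dissociation and stress genes had lower estimates (median -0.35), none called, with Hspa8, a heat shock cognate, at 923 to 1368 CPM and Fosb, an immediate early gene, at 23.7, 67.8 and 60.3 CPM against 28, 38.1 and 23.5 CPM. In deep members that median was -0.13 and in shallow members -0.23. Of 20 interferon response genes 11 were tested (8 higher, 3 lower, median 0.15), none called. Oasl2, an interferon-induced gene, was at 7.72, 6.5 and 5.28 CPM and at 12.8, 11.4 and 11.3 CPM (0.84, SE 0.21), without overlap.

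Whether the genotype difference was particular to the mitotic-transcript cells was tested as its difference from that in S-phase cells, with the library as a factor. Of 12111 genes 2 were called (0.0165%), both with a lower effect in the mitotic-transcript cells, and 528 had an unadjusted p under 0.05. Against Lgr5-positive dividing cells 0 of 12124 were called by edgeR, with 721 at an unadjusted p under 0.05. The called genes were Gip, an enteroendocrine hormone gene, and Rep15, a gene for a Rab15-binding protein. Without Fpr2VKO replicate 1 neither was called (edgeR, adjusted p = 0.921 and 0.37), and with each library left out in turn Gip was called in 5 and Rep15 in 2 of 6 fits. No gene of the mitotic lists was called in either test.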

How the data were processed

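The authors aligned reads to mm10 with MobiVision and deposited raw UMI counts per gene and barcode, with 32285 genes and 2359296 barcodes in each of 6 matrices. The annotation version was not given in the sources used here, and the study's own filters, doublet removal (DoubletFinder) and clustering (Seurat 4.0.0, per the submitters' processing notes) came after these files. Groups and replicate numbers came from the labels. The members, gene lists and named genes (the rule genes, called genes, and from each list up to 4 of the most abundant members and the largest difference) were chosen with earlier results of these data known. Raw UMIs were summed per library and class and tested with edgeR 4.0.16 (R 4.3.3, TMM, filterByExpr, robust quasi-likelihood, Benjamini-Hochberg), with DESeq2 1.42.0 as an alternative. Levels are CPM of the class sum. They are tag counts and were not divided by gene length, so genes are compared between groups and classes only. Shares were tested by exact permutation over libraries, two-sided. Phases came from cyclone (scran 1.30.0). Doublets were scored against artificial doublets (25% added, scikit-learn 1.9.0), with 0.8% called per 1000 cells, and were removed only as an alternative. An upper limit for 0 counts is 3 counts and covers counting error only. In simulated data for the comparison between groups, 160 of 195 genes changed 2-fold or 3-fold were recovered, with 19 false calls among 12175 genes. Smaller changes were not simulated. The labels do not say more of the mice, so p-values measure the spread between libraries. One gene called within deep members is not reported here.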

Additional observations from a re-analysis of the deposited data

Results flagged for a closer look

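The genotype difference in 2 genes was itself different between mitotic-transcript cells and S-phase cells by a test of that difference (edgeR, adjusted p = 3.4e-05 for Gip and 0.029 for Rep15). Without Fpr2VKO replicate 1 neither was called (adjusted p = 0.921 for Gip and 0.37 for Rep15, edgeR). Rep15 was also not called without Fpr2VKO replicate 2 (0.051), Fpr2VKO replicate 3 (0.16) or Fpr2f/f replicate 3 (0.361). The differences of effects stayed negative, at -5.86 to -4.01 for Gip and -2.58 to -1.81 for Rep15.

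For Gip the effect was lower in the mitotic-transcript cells by -5.46 on the log2 scale (SE 0.65). Members held 433, 263 and 30 Gip UMIs in Fpr2f/f and 19, 12 and 7 in Fpr2VKO. A single member held 423 of the 433 UMIs in Fpr2f/f replicate 1, 192 of the 263 in replicate 2 and 21 of the 30 in replicate 3. S-phase cells held 4, 3 and 1 UMIs and 18, 2 and 1 UMIs.

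For Rep15 the difference of effects was -2.31 (SE 0.41). Members held 3.93, 7.58 and 11.7 CPM in Fpr2f/f and 4.27, 4.55 and 3.34 CPM in Fpr2VKO, from 21 to 91 UMIs per library. S-phase cells held 4.44, 6.7 and 3.76 CPM in Fpr2f/f and 16.4, 12.8 and 12.6 CPM in Fpr2VKO. Barcodes outside the dividing and S-phase classes held 36.1 to 62.2 CPM and free RNA 6.22 to 16.8 CPM, and the part of either in the difference was not tested.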

How the results depend on the processing

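The count of 2 called genes became 15 with DESeq2, 53 without a filter on low counts, 34 with a mitochondrial limit of 10%, 6 with at least 10000 UMIs, 4 with a mitotic share of at least 0.2%, 4 under 10000 UMIs (added after seeing the data), and 1 each with RLE normalization, a mitochondrial limit of 40% and thinned members. Leaving out a library gave 1 to 74 calls, with 74 (19 higher) without Fpr2f/f replicate 1. The replicate block gave 8 calls (6 higher). Same-numbered libraries correlated at -0.065, -0.144 and 0.045 in their deviations from the group means. With 3 libraries per group these values cannot decide whether the numbers pair the libraries. The 2 calls against S-phase cells became 0 against Lgr5-positive dividing cells, 0 between deep and shallow members (added), 14 without a filter, and 1 to 5 with a library left out, namely 5 without replicate 1 of Fpr2f/f, 5 without replicate 2 of Fpr2f/f and 1 without replicate 1 of Fpr2VKO, which was neither Gip nor Rep15. The calls without a filter included 1 of the 2 genes called between the groups, as did those without replicate 1 of Fpr2f/f. The difference in the share of kept barcodes turned negative at a mitochondrial limit of 10% (-7.63 points), with at least 5000 UMIs (-2.18 points) and with at least 10000 UMIs (-2.01 points), and ran from -1.37 to 2.45 points with a library left out. The difference in the share of cycling barcodes stayed below 0 in the settings tried. It was -6.46 points with a mitochondrial limit of 10% and -0.18 points with barcodes thinned to 2000 UMIs (exact p = 0.9). With at least 5 genes for the mitotic and also for the S-phase condition it was -5.39 points (no overlap, exact p = 0.1). With a library left out it ran from -6.94 to -0.56 points. The G2M share ran from -2.45 to 4.28 points, below 0 also without Fpr2VKO replicate 2 (-0.94 points). The replicate block left the differences in share and phase as they were (exact sign-flip p = 1, 0.5 and 0.75, and 3 pairs cannot give a p below 0.25). Of 2671 values of single named genes under the alternatives, 2648 kept direction and side of the threshold, 12 passed it, 10 (all Sult1d1) no longer did, and the Tff3 log2 fold change turned to 1.39 (adjusted p = 0.000148, edgeR) at a mitochondrial limit of 10%. The cause was not tested for any of these. Rep15 rested on 21 to 91 UMIs per library in the members, and the part of depth in its calls was not tested.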
